A study of Mus musculus with 20 samples.

Results

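Macrophages that reside in a tissue are recognised by surface receptors and secreted proteins, some of which they share with other myeloid cells, and 9 genes used as such markers were followed here in liver and white adipose tissue (WAT): Adgre1, Lyz2, Folr2, Clec10a, C1qa, C1qb, C1qc, Mrc1 and Cd163. The genes were found by name on the array, every probe counted, which gave 8 genes under a listed or older name (Emr1 for Adgre1, Lyzs for Lyz2). Clec10a was reached through the accession of its probe, since the array names it Mgl1. In all, 11 probes of 41174 belonged to the 9 genes, with 2 probes each for Adgre1 and Lyz2 and 1 for each of the others. All 11 probes were well above background on all 20 arrays and none was saturated, so every member passed the filter on dim probes in both tissues.

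RNA came from liver and WAT of male C57BL/6 mice, 5 months old, all fed a high fat diet (35% fat) for 6 weeks. Wild-type (WT) mice were compared with RORasg/sg mice, called sg/sg or staggerer, which have a deletion that arose naturally in Rora and so lack normal nuclear receptor RORα. Each of the 4 groups (WT liver, sg/sg liver, WT WAT, sg/sg WAT) held 5 arrays, from 5 WT and 5 sg/sg mice. The deletion is present in every cell of the body and no mice on a standard diet were included, so the groups show neither which cell type needs RORα nor what the diet itself did. The fat depot is not given in the sources used here.

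The 3 Rora probes had separate ranges in both tissues, with log2 differences of sg/sg minus WT of -2.88 to -2.81 in liver and -2.75 to -2.72 in WAT. Whether they lie in the deleted stretch is not stated. Intensity at the 75th percentile lay between 648 and 1090 on the liver arrays and between 1352 and 2598 on the WAT arrays, and sg/sg WAT replicate 4 had the lowest value in WAT and the fewest probes well above background (72.0%). Liver arrays sat on 3 slides, of which slide 1 held 4 WT arrays, slide 2 held 1 WT and 3 sg/sg arrays and slide 3 held 2 sg/sg arrays. Each of the 3 WAT slides held both genotypes. Tissue labels were borne out by their markers: 11 of 11 hepatocyte genes were higher in liver and 10 of 10 adipocyte genes were higher in WAT, with Lep and Plin1 not well above background on any liver array.

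C1q is the recognition molecule of the classical complement pathway. It is built from A, B and C chains, encoded by C1qa, C1qb and C1qc, and unlike most complement proteins, which hepatocytes secrete, it is made largely by macrophages and related cells. Adgre1 encodes F4/80, a surface receptor long used to mark mouse macrophages, and Lyz2 encodes lysozyme M, a bacteriolytic enzyme of the myeloid lineage. Folr2 is the folate receptor beta, Clec10a and Mrc1 (CD206) are lectins that bind sugars on glycoproteins, and Cd163 is the scavenger receptor for haemoglobin bound to haptoglobin. Kupffer cells are the resident macrophages of the liver, and adipose tissue holds both resident macrophages and, in obesity, lipid-laden ones derived from monocytes.

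The probes of the C1q genes lie side by side on the minus strand of chromosome 4 of mouse build mm7, C1qb at 136259100 to 136259159, C1qc at 136268288 to 136268347 and C1qa at 136274931 to 136274990, a span of 15891 bases. The Adgre1 probes lie on chromosome 17, probe 1 at 55686649 to 55686708 and probe 2 at 55613754 to 55613813. The Lyz2 probes lie on chromosome 10, probe 1 at 116785279 to 116785338 and probe 2 at 116790004 to 116790063. The others are Folr2 on chromosome 7 at 97886503 to 97886562, Clec10a on chromosome 11 at 70252304 to 70252363, Mrc1 on chromosome 2 at 14281098 to 14281158 and Cd163 on chromosome 6 at 124312766 to 124312825. No annotation of that build was used, so the exon under a probe is not stated.

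RefSeq promoters were held for 6 of the 9 genes, and 4 are shown. C1qb and C1qc are the C1q genes with a promoter held, C1qa having none. Of the receptor genes, Mrc1 fell in WAT and Cd163 did not pass the test. Each is the 250 bases before the annotated start, read 5′ to 3′ on the gene's strand, from RefSeq on build GRCm38.p6. Capitals mark matches on either strand to GAGGAA (or TTCCTC), the core bound by the macrophage factor PU.1, and to AGGTCA (or TGACCT), the half-site bound by ROR receptors.
C1qb, chr4:136886201-136886450, minus strand: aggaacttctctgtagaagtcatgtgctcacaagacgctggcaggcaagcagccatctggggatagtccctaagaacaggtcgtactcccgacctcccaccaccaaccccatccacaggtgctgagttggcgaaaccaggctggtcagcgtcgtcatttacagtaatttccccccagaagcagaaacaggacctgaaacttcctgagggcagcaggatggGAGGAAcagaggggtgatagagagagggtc
C1qc, chr4:136892915-136893164, minus strand: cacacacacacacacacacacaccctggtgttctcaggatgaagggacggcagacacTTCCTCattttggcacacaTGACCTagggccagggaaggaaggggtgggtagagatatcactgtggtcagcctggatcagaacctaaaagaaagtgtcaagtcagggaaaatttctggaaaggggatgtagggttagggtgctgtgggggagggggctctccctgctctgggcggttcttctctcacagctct
Mrc1, chr2:14229164-14229413, plus strand: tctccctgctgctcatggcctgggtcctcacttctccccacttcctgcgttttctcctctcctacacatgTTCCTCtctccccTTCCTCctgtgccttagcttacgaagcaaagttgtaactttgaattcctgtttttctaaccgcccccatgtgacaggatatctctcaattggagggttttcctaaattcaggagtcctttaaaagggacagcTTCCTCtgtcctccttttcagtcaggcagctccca
Cd163, chr6:124304401-124304650, plus strand: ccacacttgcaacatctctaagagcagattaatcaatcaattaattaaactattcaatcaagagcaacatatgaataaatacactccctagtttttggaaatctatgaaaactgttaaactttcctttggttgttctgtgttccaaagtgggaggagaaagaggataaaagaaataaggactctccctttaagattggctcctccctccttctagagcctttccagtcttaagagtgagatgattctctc
The PU.1 core occurred 1 time each in the windows of C1qb and C1qc, 3 times in that of Mrc1 and 0 times in those of Cd163, Lyz2 and Folr2 (both promoters of the last), against 23.3% of 32851 RefSeq promoter windows of 250 bases with at least 1 match. The ROR half-site occurred only in the C1qc window among the 6 genes with a promoter (14% of all windows), beginning 174 bases before the start. A C/EBP motif, TTGCNNAA (or TTNNGCAA, 9.56% of all windows), had no match in the windows of the 6 genes. No matches overlapped in the windows shown. These are matches of letters, and they do not say whether a factor binds there.

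Levels are log2 intensities relative to the array's own 75th percentile, so a level of 0 is an intensity equal to that percentile. A level can be compared between groups for 1 probe, not between probes. In WT mice 10 of the 11 member probes were higher in WAT than in liver by limma (adjusted p under 0.05), where 34.2% of all 32641 probes tested were higher. All 10 had fully separate ranges, and 30.2% of all probes did so in that direction. Clec10a stood out in size, from -1.84 to -1.34 in WT liver and from 5.09 to 5.51 in WT WAT, a difference of 6.95 (SE 0.21, 124-fold, adjusted p = 5.08e-16). The other called probes differed by 1.16 (C1qc, SE 0.17, adjusted p = 3.64e-06) to 4.13 (Lyz2 probe 2, SE 0.33, adjusted p = 1.06e-09). Mrc1 and Folr2 each differed by 1.93 (SE 0.15 and 0.19). Cd163 did not pass the test, at 2.13 ± 0.40 in WT liver and 2.25 ± 0.34 in WT WAT (SD, n = 5), a difference of 0.12 (SE 0.19, adjusted p = 0.588). With quantile normalization that difference was 0.45 (adjusted p = 0.0407). No slide held both tissues and each tissue was read on its own scanner, so tissue and slide cannot be told apart.

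**Figure D1:**
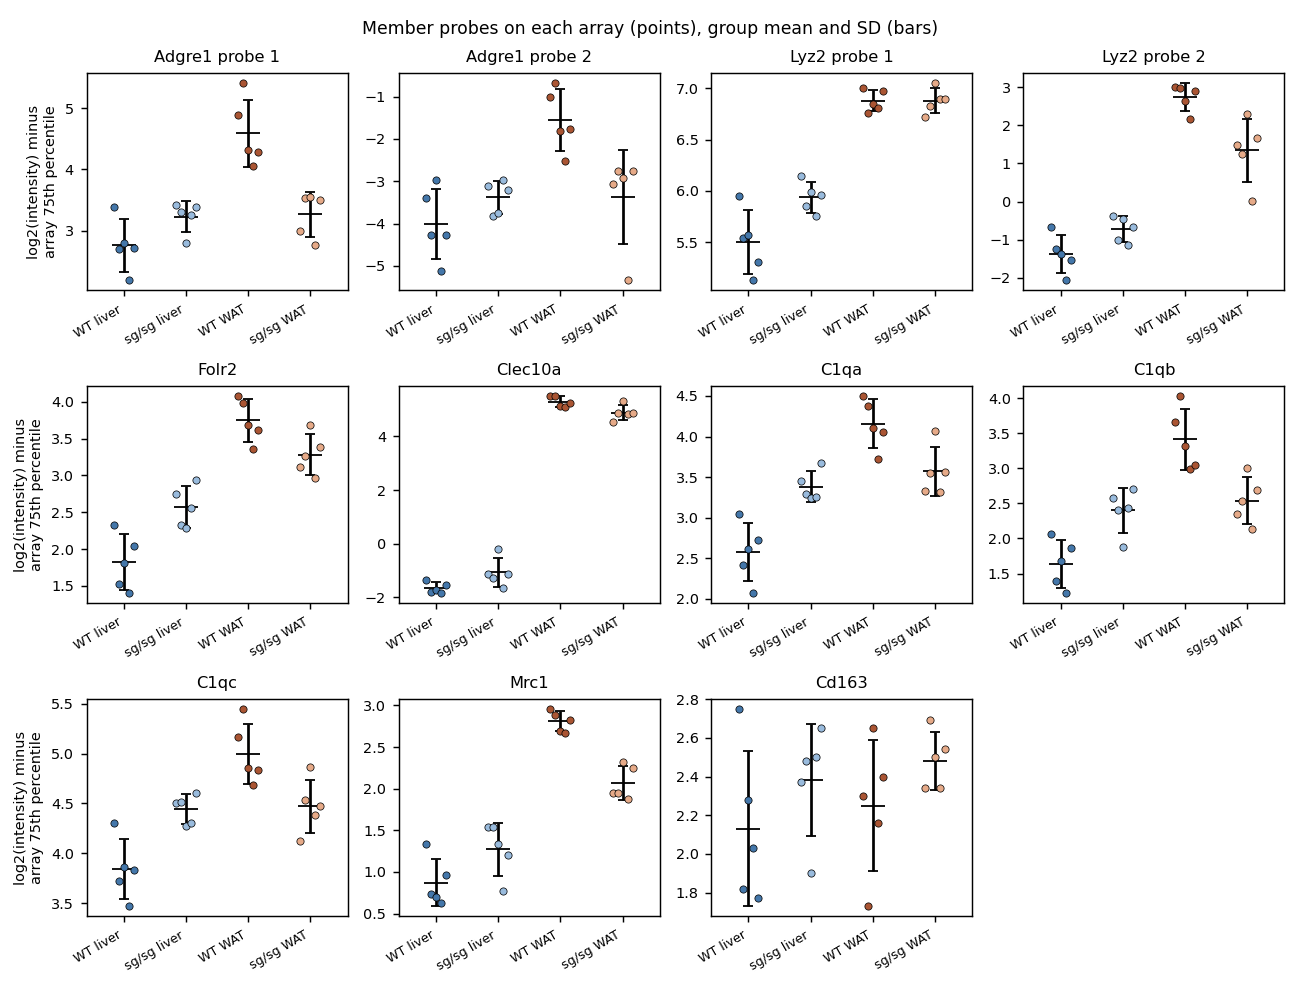
Level of each of the 11 probes (vertical axis, log2 intensity minus the array's 75th percentile, with its own scale per panel) on each of the 5 arrays of the 4 groups, as points in replicate order, with group mean and SD. In 10 panels the WT WAT points lie above all WT liver points, and Cd163 is the exception.

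In WAT the macrophage receptor genes Adgre1 and Mrc1 were called lower in sg/sg mice. So were C1qb, 1 of the 2 Lyz2 probes and, near the threshold, C1qa, which most omissions of an array left uncalled. C1qc, Folr2, Clec10a, Cd163 and the brighter Lyz2 probe did not pass the test. Of the 11 probes 6 were called lower and 0 higher by limma (adjusted p under 0.05 over 32319 probes), where 9.14% of all probes tested were lower. Their median change was -0.59, against 0.08 over all probes. Counted by the brightest probe of each gene, 4 of 9 genes fell, where 9.76% of genes did.

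Adgre1 probe 1 read 4.89, 5.41, 4.32, 4.05 and 4.28 on the WT WAT arrays (replicates 1 to 5) and 2.99, 3.53, 3.55, 2.76 and 3.50 on those of sg/sg mice. All sg/sg arrays lay below all WT arrays, and the difference was -1.32 (SE 0.27, 2.5-fold lower, adjusted p = 0.00781). Separate ranges in that direction were seen for 8.71% of all probes. It held in each adipose slide, at -1.46, -0.76 and -1.74 within slides 4, 5 and 6. Its level in sg/sg WAT, 3.27 ± 0.37, was next to that of sg/sg liver, 3.23 ± 0.25 (SD, n = 5), with overlapping ranges. Adgre1 probe 2 is dim, at an intensity of 33 to 1623 in WAT. It read -1.01, -0.68, -1.81, -2.52 and -1.77 in WT WAT and -3.06, -2.76, -2.92, -5.34 and -2.75 in sg/sg WAT. The ranges were again separate, at a difference of -1.81 (SE 0.53, 3.5-fold, adjusted p = 0.0349). The call was lost under 6 of 10 omissions of an array (adjusted p from 0.0187 to 0.0809, differences from -2.05 to -1.31), and the difference nearest to 0 was that without sg/sg replicate 4. It was not called with normexp background correction (-0.68, adjusted p = 0.257) nor with slide as a fixed block (-1.85, adjusted p = 0.0596).

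Mrc1, the mannose receptor, read 2.96, 2.88, 2.69, 2.67 and 2.83 in WT WAT and 1.95, 1.95, 2.32, 1.88 and 2.25 in sg/sg WAT. The groups did not overlap, and the fall of 0.74 (SE 0.12, 1.67-fold, adjusted p = 0.00245) had the smallest adjusted p of the 11 probes in WAT. Within slides 4, 5 and 6 it was -0.91, -0.55 and -0.82. It was called under all 10 omissions of a single array and with normexp background correction (-0.88, adjusted p = 0.0315), as was Adgre1 probe 1 (-1.48, adjusted p = 0.0447).

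Of the 3 C1q genes, C1qa and C1qb were called lower in WAT and C1qc was not, though C1qa and C1qc differed by similar amounts. C1qb read 3.66, 4.03, 3.31, 2.99 and 3.05 on the WT arrays, against 2.35, 2.53, 3.0, 2.14 and 2.69 on those of sg/sg mice. Only sg/sg replicate 3 reached into the WT range, and the difference was -0.87 (SE 0.23, 1.82-fold, adjusted p = 0.0227). C1qa read 4.50, 4.38, 4.11, 3.72 and 4.06 against 3.33, 3.55, 4.07, 3.32 and 3.56, a difference of -0.59 (SE 0.18, adjusted p = 0.0448). C1qc read 5.17, 5.45, 4.86, 4.69 and 4.84 against 4.12, 4.53, 4.87, 4.38 and 4.47, a difference of -0.53 (SE 0.18, adjusted p = 0.0577) that missed the threshold. The C1q differences were smaller within slide 5 (-0.25 for C1qa, -0.20 for C1qb and -0.17 for C1qc) than within slide 4 (-0.87, -1.15 and -0.56) or slide 6 (-0.72, -1.17 and -0.95). Slide 5 holds sg/sg replicate 3, the highest sg/sg array for 9 of the 11 probes. Sg/sg replicate 4, on slide 4, was the lowest sg/sg array for 8 of the 11. WT replicate 4, on slide 6, was the lowest WT array for 9. C1qa was not called with slide as a fixed block (adjusted p = 0.0513), with median scaling (adjusted p = 0.0505), with the replicate number as a block (adjusted p = 0.0814) or under 8 of 10 omissions of an array. The call of C1qb was lost without WT replicate 1 and without sg/sg replicate 1 (adjusted p up to 0.0575), and with normexp background correction neither C1qa (adjusted p = 0.124) nor C1qb (adjusted p = 0.103) was.

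The 2 probes of Lyz2 disagreed in WAT. Probe 2, shown because it carries the change, is the designed sequence
Lyz2 probe 2: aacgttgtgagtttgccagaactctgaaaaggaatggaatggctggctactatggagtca
It read 3.01, 2.99, 2.64, 2.17 and 2.91 in WT WAT and 1.48, 1.24, 2.30, 0.01 and 1.66 in sg/sg WAT. Sg/sg replicate 3 alone overlapped the WT arrays and replicate 4 was lowest, and the difference was -1.41 (SE 0.37, 2.65-fold, adjusted p = 0.0225). It was -1.07 (adjusted p = 0.0119) without sg/sg replicate 4, and was not called without WT replicate 1 or with normexp background correction (-1.43, adjusted p = 0.0771). Probe 1 read 6.76 to 7.0 in WT and 6.72 to 7.05 in sg/sg WAT, a difference of 0.00 (SE 0.09, adjusted p = 0.99). That probe was among the brightest of the array, at 28.6% to 53.8% of the brightest spot in WAT, whereas probe 2 reached 0.24% to 3.85%. In liver, where probe 1 was at 4.06% to 7.3% of the brightest spot, both probes were positive (0.44 and 0.66). The role of brightness in the disagreement was not tested. Lyz1, the neighbouring lysozyme gene, fell by 0.74 in WAT (SE 0.19, adjusted p = 0.0229) and rose by 0.70 in liver (SE 0.17, adjusted p = 0.0238). The longest run that its probe shared with a Lyz2 probe was 6 bases. That compares probes only, and whether Lyz1 RNA adds signal to a Lyz2 probe was not tested.

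Folr2, Clec10a and Cd163 were not called in WAT. Folr2 ran from 3.36 to 4.08 in WT and from 2.96 to 3.69 in sg/sg WAT, a difference of -0.46 (SE 0.17, adjusted p = 0.082). Clec10a ran from 5.09 to 5.51 and from 4.53 to 5.34, a difference of -0.41 (SE 0.16, adjusted p = 0.0849). Sg/sg replicates 3 and 5 reached into the WT range for Folr2 and replicate 3 alone for Clec10a. Without sg/sg replicate 3, Folr2, Clec10a and C1qc were called and Adgre1 probe 2 was not, which made 8 of 11 probes lower. Cd163 went the other way, at 2.25 ± 0.34 in WT and 2.48 ± 0.15 in sg/sg WAT (SD, n = 5), a difference of 0.23 (SE 0.16, adjusted p = 0.352).

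The count in WAT depended on single arrays and on the background correction. It was 2 without WT replicate 1 (Adgre1 probe 1 and Mrc1), 3 without sg/sg replicate 1 and 2 with normexp background correction. Without sg/sg replicate 4, the WAT array of lowest intensity, it was 5, while calls over all probes went from 7080 to 10041. In a bulk tissue sample, fewer cells of a type and less RNA per cell cannot be told apart.

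**Figure D2:**
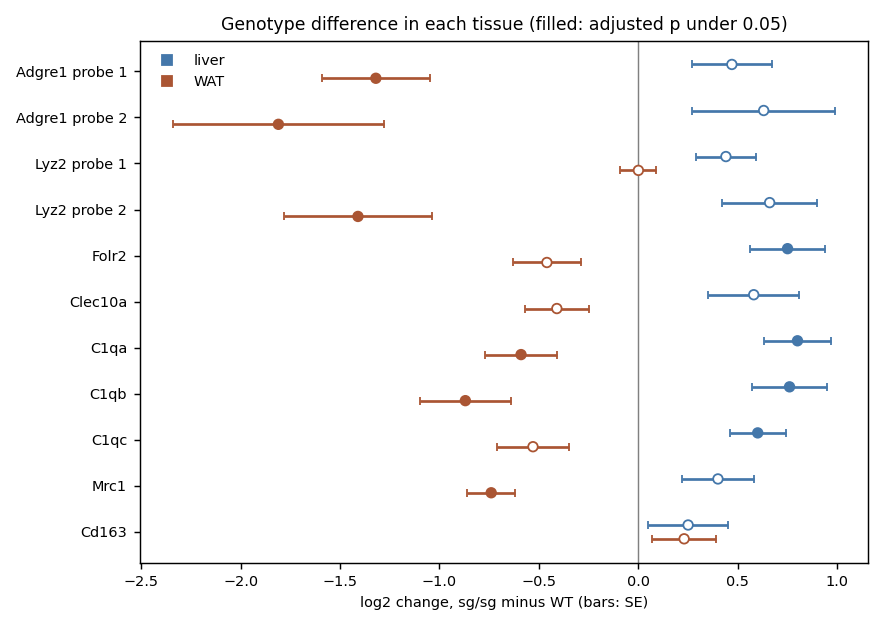
Log2 difference of sg/sg minus WT (horizontal axis) for each of the 11 probes in liver (blue) and WAT (red), with bars for the SE and filled points for an adjusted p under 0.05. All 11 liver points lie right of 0, and 9 of the 11 WAT points lie left of it.

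In liver the C1q genes and Folr2 were higher in sg/sg mice, by 1.51-fold to 1.75-fold. Of the 11 probes 4 were called higher and 0 lower by limma over 24697 probes, where 8.09% of all probes tested were higher. The median change of the members was 0.60 against 0.04 over all probes, and all 11 were positive. Positive in liver and negative in WAT were 9 of the 11, where 22.5% of probes tested in both tissues were. C1qa read 3.04, 2.42, 2.62, 2.07 and 2.73 in WT liver and 3.45, 3.29, 3.24, 3.25 and 3.67 in sg/sg liver. It was the only member probe with separate ranges, which 6.62% of all probes showed in that direction, and the difference was 0.80 (SE 0.17, adjusted p = 0.0169). C1qb read 2.06, 1.40, 1.68, 1.22 and 1.87 against 2.58, 2.40, 1.88, 2.43 and 2.71, a difference of 0.76 (SE 0.19, adjusted p = 0.0276). C1qc read 4.30, 3.72, 3.86, 3.47 and 3.83 against 4.50, 4.51, 4.27, 4.30 and 4.60, a difference of 0.60 (SE 0.14, adjusted p = 0.0247). WT replicate 1 alone reached into the sg/sg range of C1qb and of C1qc. Folr2 ran from 1.40 to 2.32 in WT and from 2.28 to 2.94 in sg/sg liver, a difference of 0.75 (SE 0.19, adjusted p = 0.0285).

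The remaining members were positive in liver without passing the test. Adgre1 probe 1 was at 0.47 (adjusted p = 0.13) and probe 2 at 0.63 (adjusted p = 0.255). Lyz2 probe 1 was at 0.44 (adjusted p = 0.0642) and probe 2 at 0.66 (adjusted p = 0.0912). Clec10a was at 0.58 (adjusted p = 0.114), Mrc1 at 0.40 (adjusted p = 0.143) and Cd163 at 0.25 (adjusted p = 0.415). WT replicate 1 was the highest WT liver array for 10 of the 11 probes and WT replicate 4 the lowest for 10, so the WT liver arrays were ordered alike for nearly all members.

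The liver calls rest on arrays from different slides. Only slide 2 held both genotypes, so a fit with slide as a fixed block gives the difference of its 1 WT and 3 sg/sg arrays. The 11 member differences in that fit thus share 1 WT array, and the median over all probes in it was 0.03. There all 11 probes were positive, at 0.60 for C1qa, 0.42 for C1qb, 0.59 for C1qc and 0.42 for Folr2, and limma called 0 (adjusted p from 0.582 to 0.838, 1 at an unadjusted p under 0.05). With slide as a random block the same 4 probes were called (adjusted p from 0.0281 to 0.0454). The estimated correlation within a slide was 0.0594, so that fit was close to the main one. It still compares WT arrays of slide 1 with sg/sg arrays of slide 3, so it does not remove the slide imbalance. C1qa was called under all 10 omissions of an array. It was the only call without WT replicate 2, 3 or 4 or without sg/sg replicate 5. C1qa and C1qc were called without sg/sg replicate 1 or 4, and 7 probes were called without WT replicate 1. With no filter on dim probes, which adjusts over more probes, 1 of 11 was called.

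**Figure D3:**
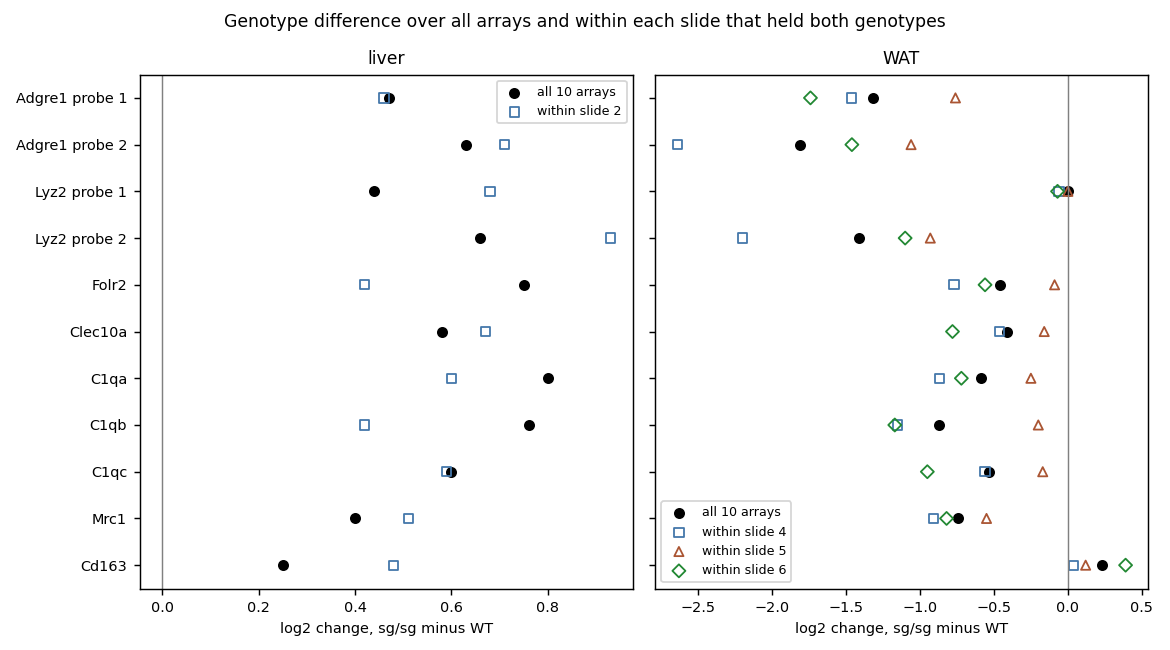
Log2 difference of sg/sg minus WT (horizontal axis) for each probe over all 10 arrays of a tissue (black) and within each slide that held both genotypes (open symbols), in liver at left and WAT at right. All 11 values within slide 2, which share 1 WT array, are above 0. In WAT the value within slide 5 is the nearest to 0 of the 3 slides for the 10 probes other than Cd163.

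The genotype difference itself differed between the tissues. The interaction term of the limma fit to all 20 arrays, the WAT difference minus the liver difference, was called lower for 9 of the 11 probes, where 9.37% of 24363 probes were. It was -1.39 for C1qa (SE 0.26, adjusted p = 8.89e-04), -1.62 for C1qb (SE 0.30, adjusted p = 0.00107) and -1.12 for C1qc (SE 0.23, adjusted p = 0.00215). Adgre1 probe 1 was at -1.80 (SE 0.35, adjusted p = 0.0014) and Mrc1 at -1.14 (SE 0.21, adjusted p = 0.00111). Folr2 (-1.22, SE 0.26, adjusted p = 0.00325) and Clec10a (-0.99, SE 0.29, adjusted p = 0.0209) were called here although neither was called in WAT alone. The exceptions were Lyz2 probe 1 (-0.44, adjusted p = 0.0782) and Cd163 (-0.02, SE 0.27, adjusted p = 0.968). No single omitted array ended any of the 9 calls, and normexp background correction ended that of Adgre1 probe 2 (-1.03, adjusted p = 0.193). The fit treats the arrays as separate mice, and the labels do not say which liver and WAT arrays share a mouse. The liver side of the term carries the slide imbalance described above, and no fit of the interaction with slide as a fixed block was made.

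Put in order by group mean, Adgre1, C1qa, C1qb, C1qc, Folr2, Mrc1, Clec10a and Lyz2 probe 2 all ran from WT WAT at the top through sg/sg WAT and sg/sg liver to WT liver. For both Adgre1 probes and the C1q genes, sg/sg WAT and sg/sg liver were neighbours with overlapping ranges, 0.01 to 0.19 apart. For Folr2, Mrc1, Clec10a and both Lyz2 probes the lower of the WAT groups did not overlap sg/sg liver. Cd163 had overlapping ranges between all neighbours in its order.

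The C1q profiles were close to one another over the 20 arrays. After each gene was centred on its own mean, the root mean square difference was 0.191 between C1qa and C1qb, 0.196 between C1qa and C1qc and 0.271 between C1qb and C1qc. Of 19809 genes ranked by this distance from the mean C1q profile, the nearest outside the 9 genes were Csf1r (0.169), Siglec1 (0.182), Il10ra (0.196), Atp13a2 (0.216) and Slc9a9 (0.217). Csf1r is the receptor for the macrophage growth factor CSF1, Siglec1 a sialic acid receptor of macrophages and Il10ra a chain of the interleukin 10 receptor. Folr2 ranked at 17, Adgre1 at 42, Mrc1 at 125 and the brighter Lyz2 probe at 170. Cd163 ranked at 3067 and Clec10a, with its large tissue difference, at 18914. Distances over the same 20 arrays share their tissue difference and slides, and are a description only.

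Other macrophage genes were set beside the members. Of 20 general macrophage genes 17 were lower in sg/sg WAT and 0 higher, with a median of -1.31, where 9.76% of genes were lower and the median over all genes was 0.08. Cd52 (-1.53, SE 0.16, adjusted p = 6.51e-04), Mpeg1, which encodes a pore-forming protein of phagocytes (-2.03, SE 0.27), the signalling adaptor Tyrobp (-1.60, SE 0.25) and the protease Ctss (-1.64, SE 0.26) had the smallest p. The summed level of all 20 genes ran from 178 to 335 in WT WAT and from 71.4 to 117 in sg/sg WAT, without overlap. Its unit is the array's 75th percentile. Leaving out each array in turn gave 16 to 18 lower. In liver 4 of the 20 were higher and 0 lower (median 0.39), where 8.7% of genes were higher, with Cd68, a lysosomal protein of macrophages, at 0.68 (SE 0.16, adjusted p = 0.0251) and Csf1r at 0.52 (SE 0.15, adjusted p = 0.0477). The liver count was 0 with median scaling, no filter on dim probes, the replicate number as a block or slide as a fixed block, and 0 to 7 without each array in turn.

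Genes of lipid-associated macrophages, the lipid-laden cells of obese fat, had 11 of 18 lower and 0 higher in sg/sg WAT, with a median of -1.93. Over all genes 9.76% were lower in WAT. The integrin Itgax (CD11c) fell by 3.50 (SE 0.40, 11.3-fold, adjusted p = 7.69e-04), the fusion protein Dcstamp by 2.69 (SE 0.28) and Atp6v0d2, a subunit of the proton pump, by 4.96 (SE 0.64). Of 14 monocyte genes 10 were lower and 0 higher (median -0.91), against the same 9.76% of all genes lower. Chil3, a chitinase-like protein, was at -1.51 (SE 0.18) and S100a4 at -1.40 (SE 0.19). With normexp background correction 4 of the 14 were lower. The list of adipose resident macrophages had 3 of 19 lower and 1 higher, with a median of 0.02, where 9.76% of genes were lower and 14% higher. The chemokine Ccl8 (-2.65, SE 0.30) and the lipid transfer protein Pltp (-1.23, SE 0.28) were among those that fell, and Timd4, a receptor for phosphatidylserine on resident macrophages, rose by 1.12 (SE 0.29, adjusted p = 0.0206). The range without each array in turn was 3 to 7 lower and 0 to 3 higher for that list, and with normexp background correction 1 was lower and 0 higher. In liver the lipid-associated list had 3 of 14 measured genes lower and 2 higher (median -0.25), where 6.88% and 8.7% of genes were. There 1 of 13 monocyte genes (median 0.10) and 1 of 15 adipose resident genes (median 0.26) were higher and 0 lower. These liver counts carry the slide imbalance too. Differences between these lists and the 9 genes were not tested.

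Kupffer cell genes had 1 of 13 higher in sg/sg liver and 0 lower, at a median of 0.51. That share is no larger than the 8.7% of all genes called higher. The one called was the oxysterol receptor Nr1h3 (0.36, SE 0.09, adjusted p = 0.0252). Clec4f, a lectin of Kupffer cells, was at 0.54 (SE 0.17, adjusted p = 0.0524) and Timd4 at 0.62 (SE 0.22, adjusted p = 0.0783). The summed level of the 13 genes ran from 131 to 185 in WT and from 163 to 260 in sg/sg liver. The count was 0 with slide as a fixed block, where the median was 0.37, and 0 with median scaling, no filter on dim probes or the replicate number as a block. It was 5 with normexp background correction and 0 to 4 without each array in turn.

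**Figure D4:**
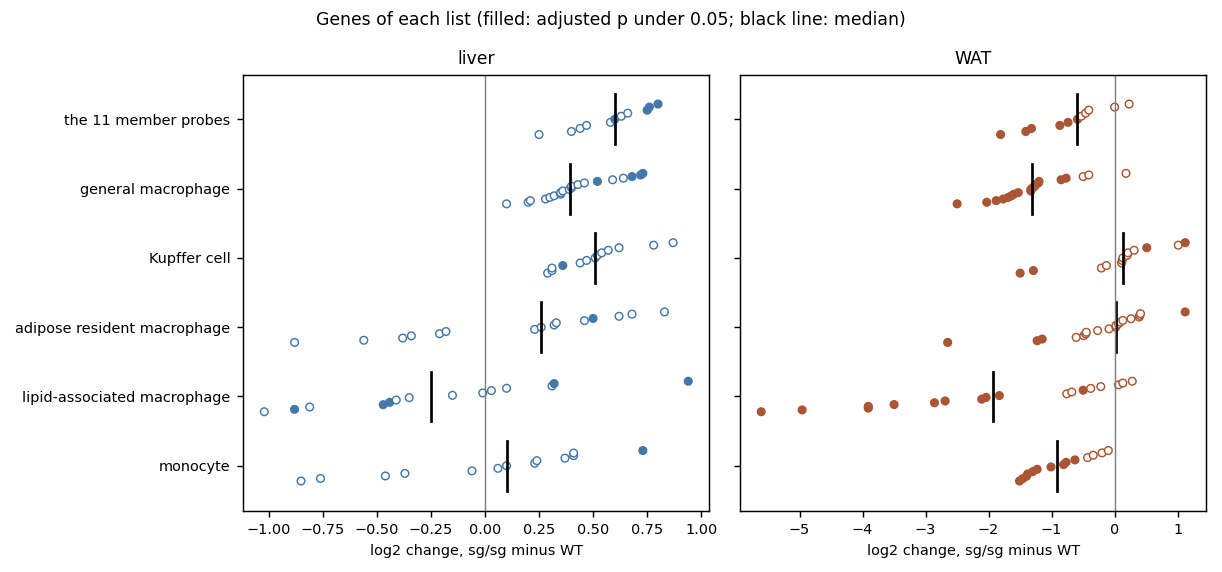
Log2 difference of sg/sg minus WT (horizontal axis) for the 11 probes and for each gene of 5 marker lists, in liver at left and WAT at right, with filled points for an adjusted p under 0.05 and a black line at the median. In WAT the medians are -0.59 for the 11 probes, -1.31 for general macrophage genes and -1.93 for lipid-associated macrophage genes, and 0.13 for Kupffer cell genes.

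Other complement genes were counted apart. Of 12 other genes of the classical and lectin pathways, 2 were lower and 2 higher in sg/sg WAT, where 9.76% of genes were lower and 14% higher. With normexp background correction 0 were called either way and the median went from -0.30 to 0.35, and with the replicate number as a block 2 were lower and 0 higher. C4a and C4b, the genes of the fourth component, which is cleaved once C1 is activated, fell by 1.51 (SE 0.28, adjusted p = 0.00461) and 1.18 (SE 0.25, adjusted p = 0.00972). C4a and C4b are near-identical, so their probes may share signal. C2, which joins C4 in the convertase, rose by 0.88 (SE 0.25, adjusted p = 0.0321) and the collectin Colec11 by 0.45 (SE 0.13, adjusted p = 0.0278). In liver 1 of the 12 was higher, a share near the 8.7% over all genes, the ficolin Fcna at 0.89 (SE 0.22, adjusted p = 0.0282). All 12 were higher in WT liver than in WT WAT, as were 41.7% of genes, whereas the 3 C1q genes were higher in WAT, as were 34.9% of genes.

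Among complement receptors 7 of 12 fell in sg/sg WAT and 0 rose (median -0.77), where 9.76% of genes fell. The count was 4 to 7 lower without each array in turn and 4 lower with no filter on dim probes. The integrin chains Itgb2 (-1.93, SE 0.25, adjusted p = 0.00131) and Itgam (-1.30, SE 0.22, adjusted p = 0.00298) form complement receptor 3, and C3ar1, the receptor for the C3a fragment, was at -1.74 (SE 0.33, adjusted p = 0.00504). In liver 2 of 10 measured receptors fell, where 6.88% of genes did, Cr2 at -0.48 (SE 0.11) and C1qbp at -0.34 (SE 0.09), and 0 did with slide as a fixed block or no filter on dim probes. Of alternative and terminal pathway genes 2 of 9 fell in WAT, Cfb at -0.78 (SE 0.12) and C6 at -1.29 (SE 0.29). Cfd, the adipocyte protease adipsin, rose by 0.85 (SE 0.25). Over all genes 9.76% fell and 14% rose in WAT. In liver Cfd fell by 6.32 (SE 0.85) and properdin, Cfp, rose by 0.64 (SE 0.17). Of complement regulators 2 of 12 rose in WAT, Vtn and Cd46, and Cd55 fell by 0.77 (SE 0.25), shares near the 14% of all genes called higher and 9.76% called lower.

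Factors that attract or sustain macrophages had 6 of 14 genes lower and 1 higher in sg/sg WAT, at a median of -0.25. Over all genes 9.76% were lower and 14% higher in WAT. The monocyte chemokines Ccl2 (-2.60, SE 0.27, adjusted p = 6.56e-04) and Ccl7 (-2.60, SE 0.29, adjusted p = 7.57e-04) fell with Ccl8, and Tgfb1 was at -0.84 (SE 0.15). In liver 2 of 11 were higher, where 8.7% of genes were, Tgfb1 at 0.63 (SE 0.11, adjusted p = 0.00886) and Il4 at 0.49 (SE 0.11). Of 12 relatives of the members by structure, 2 fell and 1 rose in WAT, near the 9.76% and 14% of all genes. The mannose receptor relative Mrc2 at -2.13 (SE 0.16, adjusted p = 1.81e-04) and Lyz1 fell. Cd163l1, a relative of Cd163, rose by 1.22 (SE 0.26, adjusted p = 0.00953).

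Markers of other cell types moved with genotype in both tissues, and their part in the members' differences was not tested. The counts stand beside 14% of all genes higher and 9.76% lower in WAT, and 8.7% higher in liver. In WAT 4 of 7 mesothelial genes were higher in sg/sg mice, with a summed level of 10.7 to 31.7 in WT and 25.4 to 39 in sg/sg arrays and all 7 well above background on every WAT array. Adipocyte genes had 5 of 10 higher and 1 lower, with a summed level of 632 to 945 in WT and 985 to 1295 in sg/sg WAT. Dendritic cell genes had 6 of 11 lower and 1 higher, with a summed level of 12 to 13.1 in WT and 4.91 to 8.85 in sg/sg WAT. Neutrophil genes had 4 of 11 lower and 0 higher, at a median of 0.10 (from -3.19 to 1.67). Fibroblast and stellate cell genes had 4 of 9 lower and 0 higher in WAT, the collagens Col1a1 (-0.84, SE 0.16), Col1a2 (-0.54, SE 0.14) and Col3a1 (-0.45, SE 0.13) and the matrix proteoglycan Lum (-0.91, SE 0.20), with a summed level of 312 to 389 in WT and 258 to 330 in sg/sg WAT. By limma 0 of 15 T and NK cell genes, 0 of 9 B cell genes, 0 of 7 mast cell genes and 0 of 10 endothelial genes were called in WAT, and at an unadjusted p under 0.05 the counts were 1, 3, 0 and 0. In liver 4 of 10 endothelial genes were higher, with a summed level of 15.6 to 21.2 in WT and 21.8 to 25.1 in sg/sg arrays, and 4 of 11 hepatocyte genes were higher, with a summed level of 2991 to 4199 in WT and 4353 to 4749 in sg/sg arrays. The liver lists carry the slide imbalance of the members.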

How the data were processed

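Total RNA of 20 samples was hybridised to 1-colour (Cy3) Agilent mouse arrays. Spot intensities, as deposited, came from Agilent Feature Extraction 9.5 per the file headers and the submitters' processing notes. They were background-subtracted and detrended, with no scaling between arrays recorded. The value table deposited by the authors held the same linear intensities (largest relative difference 0). Other deposited columns were flags that mark spots as well above background, saturated or outlying.

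Groups came from the labels. Values are log2 intensity minus the array's 75th percentile, without control spots or outlier spots, spots of a probe averaged. A probe was tested in a tissue if at least 4 of its 10 arrays were well above background and no more than 2 were missing. Each probe was fitted on its own in limma 3.58.1 (lmFit, eBayes; R 4.3.3). Tests were two-sided and p-values were adjusted by Benjamini-Hochberg over the probes tested, with a threshold of 0.05. List genes are represented by their kept probe of highest mean. Probes were named by accession through RefSeq (GRCm38.p6; 22951 probes), by a unique synonym (3109) or by the file's name (12778), and 2336 had none. The number of arrays limits the precision. The labels speak of 5 mice per genotype, so p-values reflect the spread between these arrays.

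Named are all member probes, up to 4 genes per list and comparison with the smallest p, and the 5 genes nearest to the C1q profile; 1 item is not reported here. Members and lists were chosen with earlier results of these data known. Alternatives covered background correction, scaling, probe filter, outlier spots, probes per gene, slide, replicate number and leaving out each array. On simulated data 100 probes were changed by each of 2 known amounts. In liver the fit recovered 72% of log2 changes of 1 and 94% of those of 2, and in WAT 54% and 87%. The simulation pooled each probe's spread over the 4 groups, with independent arrays and no slide effect. These rates are therefore not the recovery at each tissue's own spread. Deviations from the group mean were weakly correlated between same-numbered WT and sg/sg arrays. The correlation ran from -0.052 to 0.0949 in liver and from -0.138 to 0.105 in WAT. Between same-numbered liver and WAT arrays it ran from -0.0116 to 0.114 in WT and from -0.0727 to 0.0747 in sg/sg mice. Low values between tissues cannot tell whether those arrays share a mouse.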

Additional observations from a re-analysis of the deposited data

Results flagged for a closer look

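The genotype difference differed between the tissues, by the interaction term of limma over all 20 arrays, for 9 of the 11 probes. The term is the WAT difference minus the liver difference, and 9.37% of 24363 probes were called lower. Its liver side carries the slide imbalance, and no fit of it with slide as a fixed block was made. The term was -1.80 for Adgre1 probe 1, -2.44 for Adgre1 probe 2, -2.06 for Lyz2 probe 2, -1.22 for Folr2, -0.99 for Clec10a, -1.39 for C1qa, -1.62 for C1qb, -1.12 for C1qc and -1.14 for Mrc1, with adjusted p from 8.89e-04 to 0.0209.

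Of 44 groups of 5 arrays looked at (11 probes in 4 groups), 2 held an array far from the others by Dixon's test at the 95% level. At that level about 1 in 20 independent groups would, but these groups are not independent, since the 11 probes share arrays. Adgre1 probe 1 in sg/sg liver was lowest in replicate 3, at 2.80 against 3.26 to 3.42 in the others. Adgre1 probe 2 in sg/sg WAT was lowest in replicate 4, at -5.34 against -3.06 to -2.75. That array had the lowest 75th percentile in WAT, and a link to this was not tested.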

How the results depend on the processing

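With slide as a fixed block 3 liver probes were called, and 0 within slide 2 alone, where 0 member probes were called either way. Within WAT slides 4, 5 and 6, with 3 or 4 arrays each, 0 probes and 0 member probes were called. With no filter on dim probes 1245 liver probes were called and 1 member probe. With normexp background correction 1488 probes and 2 member probes were called in WAT, and 2704 probes for the interaction. The replicate number as a block gave 1659 probes in liver and 4488 in WAT, with 5 member probes higher in liver and 5 lower in WAT. It ended the call of C1qa in WAT and added that of Lyz2 probe 2 in liver (adjusted p = 0.0471), and changed no other member's call. Leaving out each array gave 1155 to 4111 probes in liver, 1 to 7 member probes higher in liver and 2 to 8 lower in WAT. Median scaling moved the median of all liver probes from 0.04 to -0.07 and the share of liver calls that were higher from 55.5% to 27.4%, and the 4 member probes called stayed at 4. For the interaction it moved that share from 52.8% to 65.3%. Normexp moved the WAT median from 0.08 to 0.49, and the median of the tissue difference from -0.13 to -0.60, with 35.8% of calls higher in place of 46%. Signs near 0 turned: Lyz2 probe 1 in WAT was -0.21 with normexp, -0.14 with quantile normalization, -0.04 with slide as a fixed block, -0.06 within slide 4 and -0.07 within slide 6, and -0.04 to 0.04 without each array. Cd163 turned to 0.09 (median scaling) and 0.00 (quantile normalization) for the interaction, with -0.17 to 0.08 without each array, and to -0.06 (median scaling) for the tissue difference. Beyond fewer arrays or more probes tested, the cause was not tested. The dim Adgre1 probe 2 went from -1.81 to -0.68 in WAT with normexp.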
